A study of Homo sapiens with 12 samples.

Results

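The mRNAs of 10 heat shock chaperones were followed in the immortalized human lens epithelial line HLE-B3. The genes were HSPA1A, HSPA1B, HSPA6, HSPA8, HSPH1, DNAJB1, HSP90AA1, HSPD1, HSPE1 and BAG3, 10 of the 58735 genes in the deposited tables. They were chosen by symbol with earlier results of these libraries known, including the low level of HSPA6 in H2O2-treated ATG7 KO cells. The 12 libraries formed 4 groups of 3 biological replicates: untreated WT cells (0 h), WT cells given 200 μM H2O2 for 12 h, untreated ATG7 KO cells (0 h), and ATG7 KO cells given the same H2O2 treatment for 12 h. ATG7, which encodes an enzyme needed to build autophagosomes, was disrupted with CRISPR/Cas9 and single clones were picked, but which clone or how many clones were sequenced is not given in the labels. Untreated cells were collected at 0 h, so the effect of H2O2 and that of 12 h in culture cannot be told apart. The chaperone levels are given as FPKM (fragments normalised to gene length and sequencing depth), and the tests used the raw counts.

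Heat shock proteins bind unfolded polypeptides and help them to fold, or pass them on for degradation. HSP70 proteins work in cycles of ATP use that J domain proteins such as DNAJB1 start and that nucleotide exchange factors such as HSPH1 and BAG3 reset, and clients then move on to HSP90 in the cytosol. In mitochondria HSPD1 (HSP60) and HSPE1 (HSP10) form a folding chamber and its lid. Several of these genes are transcribed when the heat shock factor HSF1 binds heat shock elements, which are inverted repeats of the unit GAA, in their promoters. HSPA8 and HSP90AA1 are abundant in most cells without stress, whereas HSPA6 is nearly silent until stress. In the lens, chaperones keep long-lived proteins soluble.

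The 250 bases before each RefSeq start site of the 10 genes (GRCh38.p14, 14 start sites, all 10 genes matched by symbol) were searched on both strands for the heat shock element. The forms with 3 units were GAANNTTCNNGAA and TTCNNGAANNTTC, each the reverse complement of the other, and those with 2 units were GAANNTTC and TTCNNGAA, which lie within the longer forms. A form with 3 units was found in 0.441% of all 35116 windows of this length and a form with 2 units in 11.6%. Stretches with matches are shown in capitals because the genes that rose most and those that rose least after H2O2 can be compared by them. HSPA6 is a gene of 1 exon on the plus strand, and its stretch chr1:161524451-161524539 ends at the base before the start. The stretches of HSPA1A (chr6:31815422-31815463, plus strand) and HSPA1B (chr6:31827618-31827734, plus strand) hold only a form with 2 units. That of DNAJB1 (chr19:14518421-14518489, minus strand) holds 2 such forms. HSPA8 holds 3 units at 2 places (chr11:123062171-123062199 and chr11:123062346-123062374, minus strand), and HSP90AA1 (chr14:102087112-102087140, minus strand) and HSPD1 (chr2:197500060-197500088, minus strand) each hold 3 units or more at 1 place.
HSPA6: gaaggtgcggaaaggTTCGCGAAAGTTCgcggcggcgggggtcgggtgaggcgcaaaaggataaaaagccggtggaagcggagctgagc
HSPA1A: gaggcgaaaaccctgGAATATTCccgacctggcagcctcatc
HSPA1B: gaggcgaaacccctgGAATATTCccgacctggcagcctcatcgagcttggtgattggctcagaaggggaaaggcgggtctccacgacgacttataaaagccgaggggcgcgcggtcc
DNAJB1: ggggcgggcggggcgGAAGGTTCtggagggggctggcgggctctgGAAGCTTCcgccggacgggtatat
HSPA8 near: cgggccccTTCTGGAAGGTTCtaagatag
HSPA8 far: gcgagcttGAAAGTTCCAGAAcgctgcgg
HSP90AA1: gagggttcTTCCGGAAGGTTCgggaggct
HSPD1: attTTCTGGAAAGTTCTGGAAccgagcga

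The match with 3 units began 74 bases before the start in HSPA6, 55 and 230 bases before it in HSPA8, and 88 bases before it in HSP90AA1. The matches with 2 units began 106 bases before the start in HSPA1A, 105 in HSPA1B, and 77 and 47 in DNAJB1. HSPH1, HSPE1 and BAG3 had no match in their windows, and neither had the other start sites of DNAJB1, HSP90AA1 and HSPD1. The match of HSPD1 also lies before the HSPE1 start, which is on the other strand, but outside the HSPE1 window (chr2:197500129-197500378). A match describes these letters only, and binding was not measured.

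**Figure D1:**
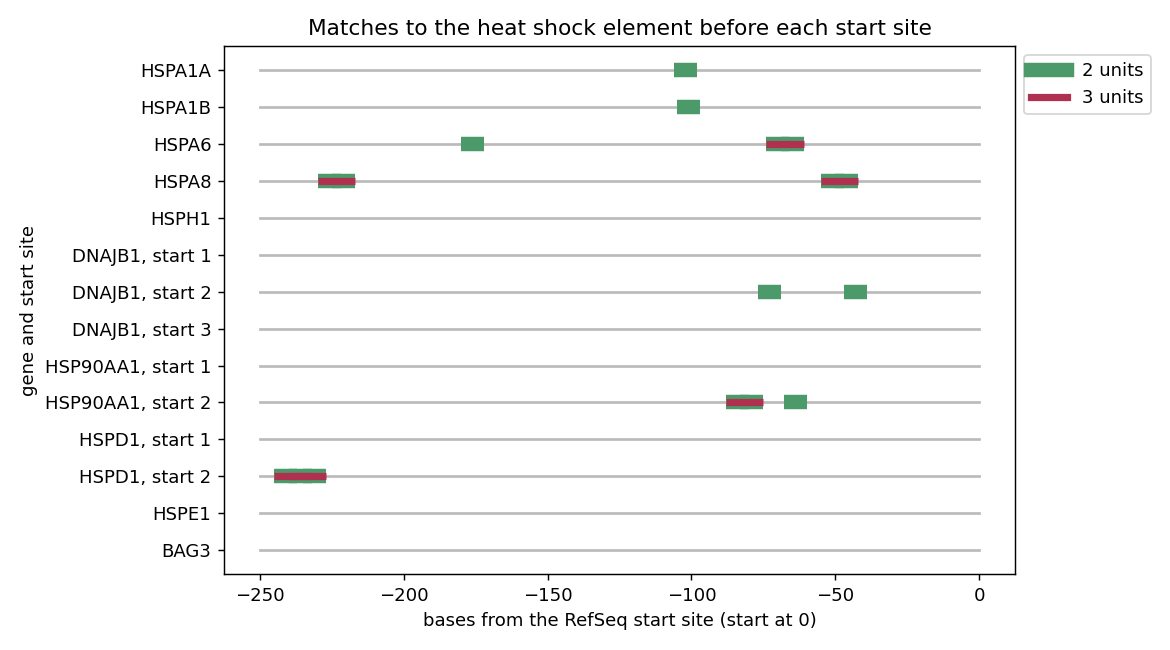
Positions of the heat shock element in the 250 bases before each RefSeq start site of the 10 genes (x axis, bases from the start; y axis, gene and start site). Wide bars are forms with 2 units and narrow bars forms with 3 units. Windows of HSPA6, HSPA8, HSP90AA1 and HSPD1 hold matches with 3 units, and those of HSPH1, HSPE1 and BAG3 hold no match.

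The libraries held 15602183 to 17659496 counted reads each. ATG7 mRNA was not lower in the libraries labelled ATG7 KO (3.42 to 3.78 FPKM against 2.21 to 2.81 FPKM untreated), so its count cannot check that label. Untreated ATG7 KO replicate 1 stood apart from its replicates, and results that rest on it are given with and without it. Of 11 lens epithelium markers, 4 or 5 had a mean above 1 FPKM in each group, while FOXE3, MAF, PROX1, CRYAA and CRYBB2 were below 1 FPKM in every library. The summed level of 6 fibroblast markers, nearly all of it COL1A1, was 625 to 656 FPKM in untreated WT cells, 273 to 290 in treated WT cells, 349 to 505 in untreated ATG7 KO cells and 246 to 255 in treated ATG7 KO cells, with DCN and COL3A1 at or near 0. The summed level of 3 blood cell markers was at most 2.06 FPKM with HBB at 0, and that of 3 surface epithelium markers was at most 0.286 FPKM. The part of these markers in the chaperone results was not tested. In bulk RNA, a change in all cells and a change in some of them cannot be told apart.

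In untreated WT cells the chaperones ranged from abundant to nearly absent. HSPA8 (300 FPKM) and HSP90AA1 (229 FPKM) were highest, followed by HSPD1 (103), DNAJB1 (61.8), HSPH1 (35.9), BAG3 (34.4), HSPA1B (25.8), HSPE1 (11.1) and HSPA1A (2.31 FPKM). The libraries of HSPH1 and BAG3 overlapped, and those of the other neighbours in this order did not. HSPA6 had 2, 2 and 0 reads in the 3 libraries. After H2O2 the order in WT cells was HSPA8 (281 FPKM), HSP90AA1 (249), DNAJB1 (198), HSPA1B (191), HSPD1 (144), HSPA6 (96.8), BAG3 (76.8), HSPH1 (56.4), HSPA1A (35.7) and HSPE1 (21.4 FPKM). In that order HSPA8 overlapped HSP90AA1, DNAJB1 overlapped HSPA1B, and HSPA6 overlapped BAG3. In treated ATG7 KO cells HSPA6 remained last at 2.58 FPKM, and HSPA8 (416 FPKM) stood first with no library near HSP90AA1 (227 FPKM). Among all genes, HSPA6 ranked 369 by mean FPKM in treated WT cells and 9563 in treated ATG7 KO cells.

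**Figure D2:**
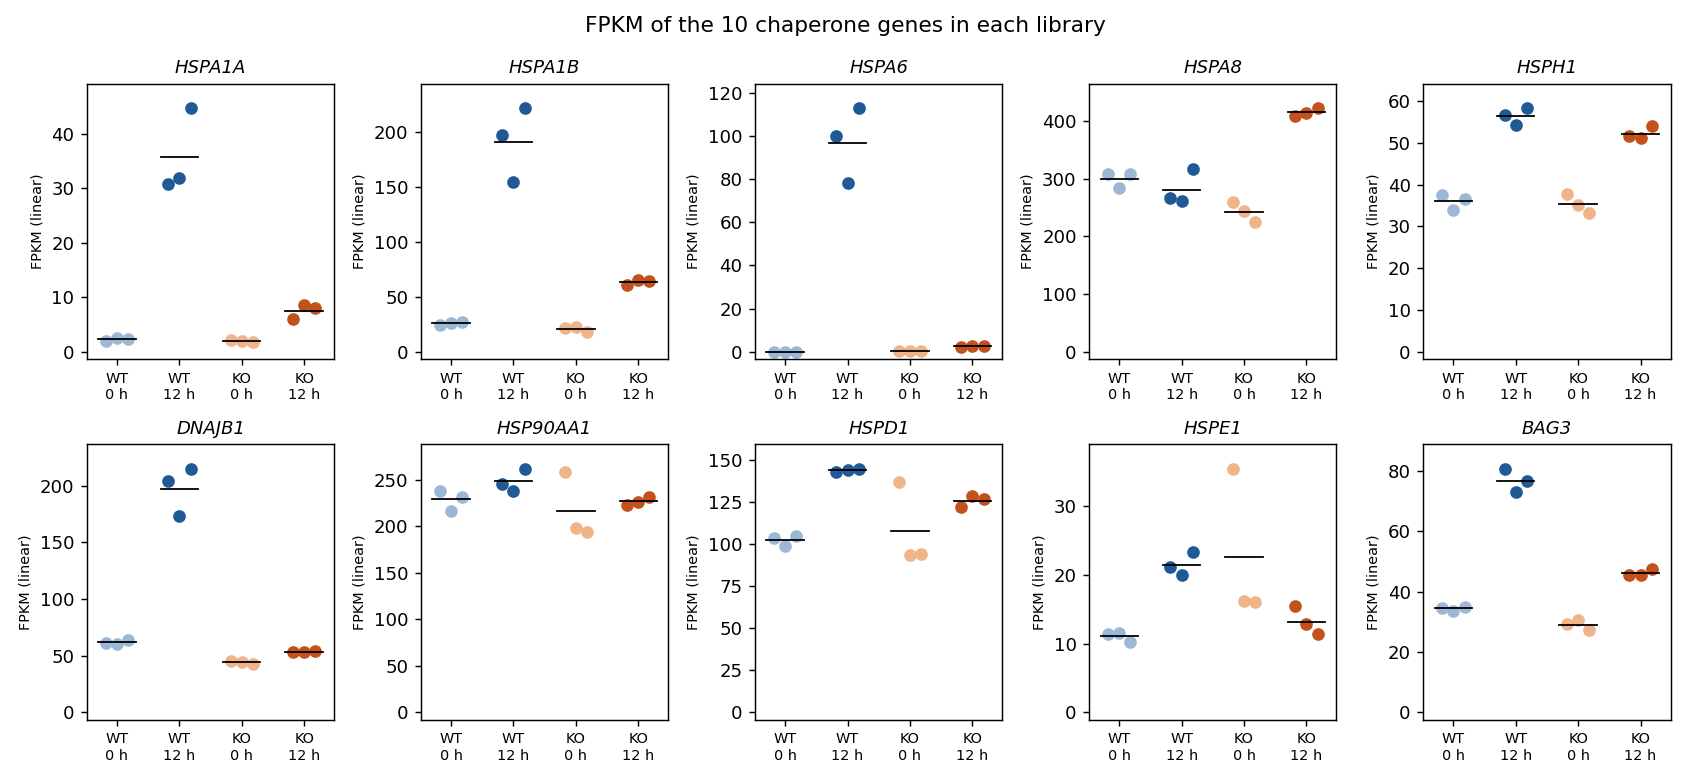
FPKM (linear y axis, a separate scale for each gene) of the 10 chaperone genes in the 12 libraries. Points are libraries, replicates 1 to 3 from left to right, and lines are group means. HSPA6 lies between 78.0 and 113 FPKM in treated WT cells and between 2.39 and 2.80 FPKM in treated ATG7 KO cells, whereas HSPA8 is highest in treated ATG7 KO cells (409 to 423 FPKM).

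The first comparison asked how the chaperones of WT cells responded to H2O2. HSPA6 passed the filter on low counts only through its treated libraries and is left out of the counts of both responses. Of the 9 other genes, 7 rose at an adjusted p under 0.01 and none fell (quasi-likelihood test of edgeR, adjusted by Benjamini-Hochberg over 15913 genes). Across all genes tested, 30.9% rose and 30.1% fell. The median log2 fold change was 0.95 for the 9 genes and -0.01 for all genes. The inducible HSP70 genes rose most. HSPA1A, a stress-induced cytosolic HSP70, had 1.99, 2.54 and 2.40 FPKM in untreated and 30.8, 31.8 and 44.7 FPKM in treated WT cells. The difference amounted to 3.94 on the log2 scale (standard error, SE, 0.25; edgeR adjusted p = 0.000111). HSPA1B, which encodes the same protein from a neighbouring gene, had 24.7, 25.9 and 26.9 FPKM and then 197, 155 and 222 FPKM. The groups did not overlap, and its log2 fold change was 2.88 (SE 0.17, edgeR adjusted p = 0.000107).

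HSPA6, the strictly inducible HSP70B', went from 2, 2 and 0 reads to 4016, 2846 and 4593 reads in WT cells. Over the group, the share of reads on HSPA6 was 2969 times higher (exact 95% interval 1159 to 10897, counting error only). Its fitted log2 fold change of 11.45 (SE 0.45) depends on the prior count of the fit and is given without a test. HSPA8, the constitutive HSC70, did not follow its relatives. It had 309, 284 and 308 FPKM in untreated and 266, 261 and 317 FPKM in treated WT cells, which overlap, with a log2 fold change of -0.10 (SE 0.07, 95% interval -0.24 to 0.04, edgeR adjusted p = 0.262). Without treated WT replicate 3 the value was -0.20 with an edgeR adjusted p of 7.91e-06, and with no filter on low counts it was -0.14 with an adjusted p of 0.00434.

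Of the genes that act with HSP70, DNAJB1 (an HSP40 that stimulates the ATPase of HSP70) rose from 61.4, 60.1 and 63.9 to 204, 173 and 215 FPKM in WT cells. This was a log2 fold change of 1.67 (SE 0.07, edgeR adjusted p = 2.26e-10). BAG3, a nucleotide exchange factor that links HSP70 clients to selective autophagy, rose from 34.7, 33.6 and 35.0 to 80.7, 72.9 and 76.7 FPKM. Its log2 fold change was 1.15 (SE 0.05, edgeR adjusted p = 9.33e-26). HSPH1, the HSP110 exchange factor and disaggregase partner, rose less, from 37.4, 34.0 and 36.5 to 56.7, 54.2 and 58.3 FPKM (log2 fold change 0.65, SE 0.04, edgeR adjusted p = 4.97e-18). HSP90AA1, the inducible cytosolic HSP90, had 238, 217 and 232 FPKM before and 246, 238 and 262 FPKM after H2O2. The groups overlapped, and the log2 fold change of 0.11 (SE 0.04) missed the threshold with an edgeR adjusted p of 0.0135. The adjusted p was 0.00526 without treated WT replicate 2, 0.00893 with DESeq2, 0.00637 with RLE scaling and 0.00065 with a correction for gene length.

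Both mitochondrial chaperonin genes rose in WT cells. HSPD1 went from 104, 98.9 and 105 to 143, 144 and 145 FPKM, a log2 fold change of 0.48 (SE 0.04, edgeR adjusted p = 1.1e-14). HSPE1 went from 11.4, 11.5 and 10.3 to 21.1, 19.9 and 23.3 FPKM, a log2 fold change of 0.95 (SE 0.08, edgeR adjusted p = 2.9e-15). The ratio of HSPD1 to HSPE1 FPKM was 8.6 to 10.2 in untreated and 6.23 to 7.27 in treated WT libraries. Within the treated WT group, replicate 3 held the highest FPKM of 9 of the 10 genes and replicate 2 the lowest of 8.

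The same question was asked in ATG7 KO cells. Of the 9 genes other than HSPA6, 5 rose at an adjusted p under 0.01 and none fell, where 13.6% of 15475 genes rose and 12.4% fell. The median log2 fold change was 0.56 for the 9 genes and -0.03 for all genes. HSPA1A had 2.10, 1.94 and 1.76 FPKM in untreated and 6.0, 8.48 and 8.03 FPKM in treated ATG7 KO cells (log2 fold change 1.95, SE 0.17, edgeR adjusted p = 0.000201). HSPA1B had 21.3, 22.1 and 17.9 and then 60.8, 65.7 and 64.6 FPKM (log2 fold change 1.64, SE 0.11, edgeR adjusted p = 6.03e-05). The treated ATG7 KO libraries of both genes lay above the untreated ones and below every treated WT library.

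HSPA6 went from 9, 7 and 9 reads to 97, 100 and 115 reads in ATG7 KO cells. Over the group its share of reads was 12.5 times higher (exact 95% interval 8.28 to 19.5, counting error only), and the fitted log2 fold change was 3.67 (SE 0.21). It passed the filter on low counts only through its treated libraries, so no test is given. HSPA8 rose in these cells, from 259, 244 and 225 to 409, 415 and 423 FPKM, with no overlap. Its log2 fold change was 0.77 (SE 0.10, edgeR adjusted p = 0.00109). The adjusted p was 0.0103 to 0.0109 when any 1 treated ATG7 KO library was left out, and 3.23e-85 without untreated replicate 1.

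BAG3 rose from 29.4, 30.5 and 27.2 to 45.4, 45.6 and 47.6 FPKM in ATG7 KO cells (log2 fold change 0.67, SE 0.09, edgeR adjusted p = 0.00101; 0.0104 without treated replicate 3). HSPH1 rose from 37.8, 35.1 and 33.3 to 51.5, 51.2 and 53.9 FPKM. Its log2 fold change was 0.56 (SE 0.09, edgeR adjusted p = 0.00308), and the adjusted p lay between 0.014 and 0.024 when untreated replicate 2 or 3 or any treated library was left out. DNAJB1 had 45.5, 44.9 and 43.0 FPKM and then 53.3, 53.5 and 53.9 FPKM. Its log2 fold change of 0.26 (SE 0.08) missed the threshold with an edgeR adjusted p of 0.0332. DESeq2 gave 0.00366 and the correction for gene length 0.00594.

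The remaining chaperones turned on untreated ATG7 KO replicate 1. HSP90AA1 had 258, 198 and 194 FPKM in untreated and 223, 226 and 232 FPKM in treated ATG7 KO cells (log2 fold change 0.06, 95% interval -0.19 to 0.32, edgeR adjusted p = 0.721). HSPD1 had 137, 93.5 and 94.2 and then 122, 129 and 127 FPKM (log2 fold change 0.22, SE 0.16, edgeR adjusted p = 0.312). HSPE1 had 35.4, 16.2 and 16.1 and then 15.4, 12.8 and 11.4 FPKM (log2 fold change -0.77, SE 0.32, edgeR adjusted p = 0.0898). In each of them replicate 1 was the highest untreated library. Without replicate 1 all 9 genes other than HSPA6 passed the threshold, 8 of them higher and 1 lower. HSP90AA1 (0.20, SE 0.03), HSPD1 (0.41, SE 0.03) and DNAJB1 (0.27, SE 0.04) rose while HSPE1 fell (-0.30, SE 0.08, edgeR adjusted p = 0.00053). The share of all genes that passed in this fit is not given. Calls among the other chaperone network genes described below also went up, from 12 to 44. Whether the 9 genes stood out from all genes in this fit was therefore not tested.

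Untreated ATG7 KO cells were compared with untreated WT cells to see whether the chaperones differed before H2O2. Of the 9 genes tested, 1 was lower and none was higher at an adjusted p under 0.01, where 3.28% of 15357 genes were lower and 4.42% higher. The gene was DNAJB1, with 43.0 to 45.5 FPKM in ATG7 KO and 60.1 to 63.9 FPKM in WT cells and a log2 fold change of -0.48 (SE 0.09, edgeR adjusted p = 0.00985). The adjusted p rose to between 0.0376 and 0.075 when any library other than untreated ATG7 KO replicate 1 was left out, and was 2.46e-20 without that replicate. The 40 tested genes around DNAJB1 on chromosome 19 had a median log2 fold change of -0.27 in the same comparison. The part of that stretch in the DNAJB1 value was not tested. HSPA6 did not pass the filter on low counts here. It had 25 reads in the ATG7 KO group and 4 in the WT group, a ratio of shares of 6.28 (exact 95% interval 2.17 to 24.8, counting error only).

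The other genes did not pass in the untreated comparison. HSPA8 had a log2 fold change of -0.31 (SE 0.10), HSPA1B of -0.34 (SE 0.11) and BAG3 of -0.25 (SE 0.09). Their edgeR adjusted p values were 0.0832, 0.0726 and 0.0992. HSPE1 had 1.02 (SE 0.31) with an adjusted p of 0.0584 by edgeR and 0.00665 by DESeq2. The values of the others were -0.26 (SE 0.17) for HSPA1A, -0.02 (SE 0.10) for HSPH1, -0.08 (SE 0.13) for HSP90AA1 and 0.07 (SE 0.16) for HSPD1. Without untreated ATG7 KO replicate 1 a total of 6 genes passed: HSPA1B (-0.36), HSPA8 (-0.35), DNAJB1 (-0.48), HSP90AA1 (-0.22) and BAG3 (-0.25) were lower and HSPE1 (0.55) was higher. The share of all genes that passed in this fit is not given. Calls among the other chaperone network genes described below also went up, from 4 to 22. Whether the 6 genes stood out from all genes in this fit was therefore not tested.

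The H2O2-treated ATG7 KO and WT cells are described without a test, since the genes were selected on this contrast. The FPKM of 9 genes was lower in every ATG7 KO library than in every WT library and that of 1 gene, HSPA8, was higher in every one. Across the 15909 genes of this comparison, the groups did not overlap for 33.4% in the lower and for 34.7% in the higher direction. The median log2 difference was -0.72 for the 10 genes and 0 for all genes to 2 decimals. HSPA6 had 2.39, 2.57 and 2.80 FPKM in ATG7 KO cells against 99.9, 78.0 and 113 FPKM in WT cells, which is 2.67% of the WT mean and a log2 difference of -5.24 (SE 0.24). HSPA1A reached 21.0% of the WT mean (log2 difference -2.26, SE 0.24), DNAJB1 27.1% (-1.89, SE 0.09) and HSPA1B 33.3% (-1.60, SE 0.16). BAG3 (60.2%, log2 difference -0.74, SE 0.04) and HSPE1 (61.7%, -0.71, SE 0.09) followed. HSPD1 (87.7%), HSP90AA1 (91.2%) and HSPH1 (92.5%) lay closest to WT. HSPA8 was at 148% of the WT mean (log2 difference 0.56, SE 0.08). Of the 40 genes around DNAJB1, 25 were lower and 8 higher in treated ATG7 KO cells at an adjusted p under 0.01, with a median log2 difference of -0.40. Across all genes of this comparison, 27.9% were lower and 27.7% higher at that threshold. The part of this stretch in the DNAJB1 value was not tested. Around the other members the medians of the neighbours lay between -0.09 and 0.19.

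**Figure D3:**
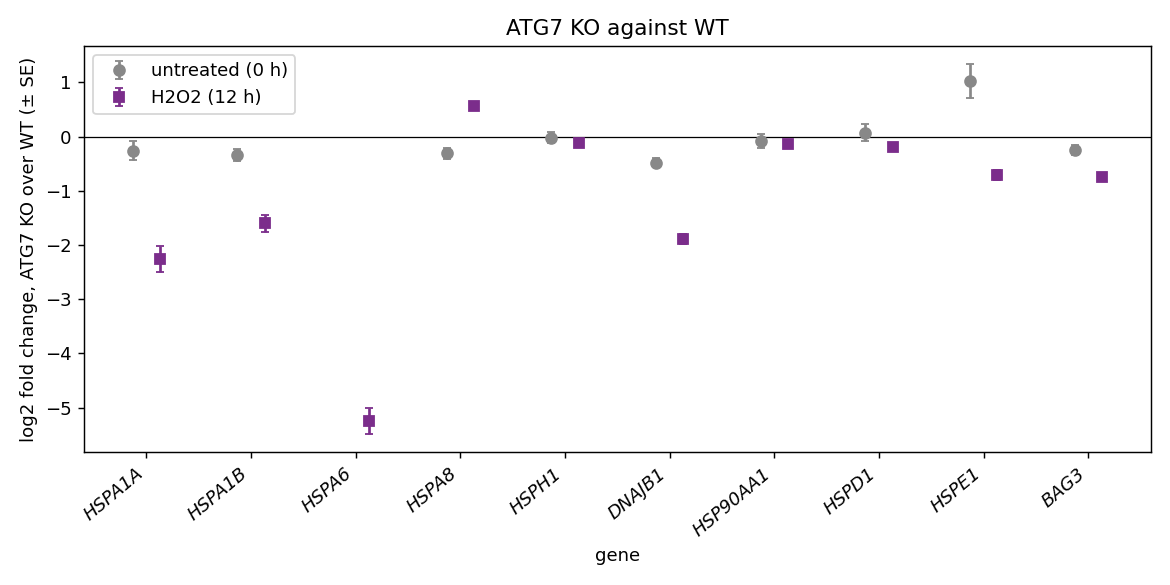
Log2 fold change of ATG7 KO over WT cells (y axis) for the chaperone genes, untreated at 0 h (circles) and after H2O2 at 12 h (squares), with bars of 1 SE from edgeR, 3 libraries against 3. HSPA6 is not shown untreated because it did not pass the filter on low counts, and after H2O2 the values run from -5.24 (HSPA6) to 0.56 (HSPA8).

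The difference between the responses of the cell lines (ATG7 KO minus WT, fitted as an interaction over all 12 libraries) holds the treated contrast on which the genes were selected, so it is given as values without a test. By these values the rise was smaller in ATG7 KO cells for HSPA6 (-7.78 on the log2 scale, SE 0.63, which depends on the prior count of the fit). The same held for HSPA1A (-1.99, SE 0.26), DNAJB1 (-1.41, SE 0.12), HSPA1B (-1.25, SE 0.17) and BAG3 (-0.49, SE 0.10). HSPE1 (-1.72, SE 0.35) differed in direction, with 0.95 (SE 0.08) in WT cells and -0.77 (SE 0.32) in ATG7 KO cells. HSPA8 had a larger value in ATG7 KO cells (0.87, SE 0.13). HSPH1 (-0.09, 95% interval -0.29 to 0.11), HSP90AA1 (-0.05, -0.33 to 0.23) and HSPD1 (-0.27, -0.60 to 0.07) had intervals that include 0. HSPE1 had -1.24 (SE 0.12) without untreated ATG7 KO replicate 1, and BAG3 had -0.26 with a correction for gene length.

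The make-up of the HSP70 transcripts shifted with these changes. In untreated cells HSPA8 accounted for 90.9% to 92.0% of the summed FPKM of HSPA8, HSPA1B, HSPA1A and HSPA6 in WT and for 91.0% to 91.9% in ATG7 KO libraries. After H2O2 its share was 44.8%, 49.7% and 45.5% in the WT libraries and 85.5%, 84.4% and 84.9% in the ATG7 KO libraries. HSPA6 held 14.8% to 16.8% of the sum in treated WT cells and 0.499% to 0.561% in treated ATG7 KO cells. HSPA1B held 29.4% to 33.2% and 12.7% to 13.4%. The sum itself was 313 to 337 FPKM in untreated and 525 to 696 FPKM in treated WT cells, and 245 to 283 and 479 to 498 FPKM in ATG7 KO cells. It was higher in every treated library than in any untreated library of the same cell line.

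Some of these genes can share reads with near-identical copies or overlapping genes. Of the stretches of 100 bases in annotated HSPA1A transcripts, 67.3% also occur in HSPA1B, so the split between these genes is uncertain. The HSPA1B count was 10.4 to 12.6 times the HSPA1A count in untreated and 4.94 to 6.51 times in treated WT libraries. Their summed count was 1169 to 1319 and 7215 to 11539 in these groups, and 917 to 1080 and 2878 to 3170 in ATG7 KO cells, so the sum moved as each gene did. HSPA6 shares 27.6% of such stretches with HSPA7, a neighbouring pseudogene. HSPA7 had no reads in untreated WT, 49, 41 and 54 in treated WT, 1, 0 and 0 in untreated ATG7 KO and 0, 2 and 0 in treated ATG7 KO libraries. Exons of AL671762.1 on the same strand cover 36.5% of the exonic bases of HSPA1B, so reads there can belong to either. Exons of other genes cover 23.9% of the exonic bases of HSPE1, among them those of HSPD1 on the other strand. HSPE1 pseudogenes held 4.06% to 7.51% as many reads as HSPE1 in each group, and HSPE1-MOB4, a read-through gene, had at most 2 reads in a library.

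A total of 69 other genes of the chaperone network was set beside the 10, in lists written with earlier results of these data known. HSPA14 has 2 identifiers in the tables, and both are counted. In WT cells 39 of 69 tested rose and 13 fell after H2O2, where 30.9% of all genes rose and 30.1% fell, with a median log2 fold change of 0.26. HSPA7 and DNAJA4 passed the filter on low counts only through treated WT libraries. They are counted here among the genes that rose, also in their own lists, so nothing is read from their calls. The counts of the single lists are descriptions beside the shares of all genes. The TRiC chaperonin, which folds actin and tubulin, had 7 of 8 subunits higher and none lower, and of 9 other HSP70 identifiers 7 were higher, both of HSPA14 among them. Of the 15 J domain genes 9 rose and 3 fell, and of 18 cochaperones 8 rose and 5 fell. Among 14 genes of mitochondrial protein quality control 5 rose and 5 fell, and of 4 heat shock factor genes 2 rose. Among genes with a mean above 1 FPKM in at least 1 group, those with the largest rises were HSPA7 (144 reads against 0, at least 49.8 times higher at a floor of 3 counts over the group), BAG1 (log2 fold change 1.22, SE 0.06) and HSPA4L, an HSP110 relative (1.18, SE 0.06). Those with the largest falls were DNAJB5 (-0.93, SE 0.08), AHSA2P (-0.48, SE 0.09) and the mitochondrial protease LONP1 (-0.48, SE 0.05).

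In ATG7 KO cells 9 of 67 tested network genes rose after H2O2 and 3 fell, with a median of 0.11. Of all genes 13.6% rose and 12.4% fell, so the share that rose was near that of all genes. Without untreated replicate 1 the number called was 44 in place of 12, and the share of all genes in that fit is not given. HSPA4L had 2.0, 2.26 and 2.34 FPKM in untreated and 18.7, 18.3 and 18.2 FPKM in treated ATG7 KO cells (log2 fold change 3.06, SE 0.10, edgeR adjusted p = 6.96e-06). In WT cells it went from 2.68 to 3.0 FPKM to 6.28 to 6.77 FPKM. Its response was larger in ATG7 KO cells by 1.88 (SE 0.11), given without a p-value because the lists were written with earlier results known. The next highest were FKBP5, a cochaperone of HSP90 (1.06, SE 0.12), and DNAJC5 (0.91, SE 0.11), and the lowest with a mean above 1 FPKM in at least 1 group were LONP1 (-0.60, SE 0.11) and UNC45A (-0.44, SE 0.10). HSF4, below that level, had the lowest value of all (-1.74, SE 0.28). Besides HSPA4L, the interaction was higher for FKBP5 (0.88, SE 0.12) and DNAJB5 (0.87, SE 0.12) and lower for HSCB, a mitochondrial J domain protein of iron-sulfur cluster assembly (-1.52, SE 0.30), and DNAJB6 (-0.57, SE 0.10). In all, 5 of 69 network genes were higher and 2 lower in that test, where 7.02% of 16856 genes were higher and 7.01% lower.

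Untreated ATG7 KO cells had 4 network genes lower and none higher than WT cells among 67 tested, where 3.28% of all genes were lower and 4.42% higher. HSPA2 (-1.95, SE 0.18), LONP1 (-0.80, SE 0.11) and FKBP5 (-0.76, SE 0.12) had the lowest values. The number called was 22 without untreated ATG7 KO replicate 1 and 1 without any other library in turn. Shares of all genes in these fits are not given. In treated cells 24 of 69 were lower and 18 higher, where 27.9% of all genes were lower and 27.7% higher, with a median of -0.03. The 24 include HSPA7 and DNAJA4, which passed the filter on low counts only through treated WT libraries. HSPA7 had 2 reads in treated ATG7 KO cells against 144 in treated WT cells (a ratio of 74.5 in favour of WT, exact 95% interval 20.2 to 621), HSPA2 had -1.29 (SE 0.14) and LONP1 -0.93 (SE 0.04). HSPA4L (1.49, SE 0.04), DNAJB5 (0.85, SE 0.08) and CLPB, a mitochondrial disaggregase (0.59, SE 0.06), were highest. None of the 8 TRiC subunits differed at this threshold between treated cells (median -0.02, edgeR).

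Genes whose pattern was most like that of 4 members were sought by Pearson's r of log2 CPM (counts scaled to library size) over the 12 libraries. The other members were left out of the rankings. The 12 points fall into 4 groups and share library and treatment, so r is a description without a test. HSPA6 was closest to the cytokine LIF (r 0.993), then FOXD1 (0.991), IRF1 (0.988), ANGPTL2 (0.985) and AP002381.2 (0.984). LIF had 10.4 and 158 FPKM in untreated and treated WT cells and 18.1 and 46.7 FPKM in ATG7 KO cells. HSPA1A was closest to RASL11A (0.987), MT-RNR1 (0.985), PPAT (0.984), JUN (0.983) and PPP1R15A (0.982), of which JUN and PPP1R15A are stress-induced regulators. DNAJB1 was closest to EGR1 (0.989), ZFP36 (0.985), PYGM (0.978), MYC (0.974) and COL11A2 (0.974). EGR1, an immediate early gene, had 9.49 and 56.0 FPKM in WT and 6.39 and 6.90 FPKM in ATG7 KO cells, so like DNAJB1 its level differed little between the ATG7 KO groups. HSPA8 was closest to ZNF527 (0.973), ADAM10 (0.964), RNGTT (0.963), MT-TP (0.961) and LSM14B (0.954). Among the members themselves r with HSPA1A was 0.99 for HSPA1B, which came first of all 13306 genes, and 0.98 for BAG3. Reads can be shared between HSPA1A and HSPA1B, as described above, and the part of this in their r was not tested. The r with HSPA6 was 0.97 for HSPA1A, 0.96 for HSPA1B and 0.94 for BAG3, but 0.12 for HSPA8.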

How the data were processed

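RNA of 12 HLE-B3 libraries was sequenced by the authors. Per the labels' processing notes, HISAT2 2.0.5 and featureCounts 1.5.0-p3 were among the tools, with GRCh38. The strand setting and the treatment of reads with several positions are not given in the sources used here. The deposited counts are whole numbers of reads per gene, not normalized. The authors also deposited FPKM values, which scale the counts by gene length and library size. Counts were tested with edgeR 4.0.16 in R 4.3.3 (filterByExpr with a minimum count of 10, TMM, robust quasi-likelihood fit), each pair of groups in its own 6 libraries and the interaction in all 12, with Benjamini-Hochberg adjustment over all genes tested and a threshold of 0.01. The fits were tested on simulated data without low counts and with less spread between replicates than the fits that hold untreated ATG7 KO libraries. That check does not cover those comparisons at their own spread or genes with few reads. Standard errors were derived from the fold change and the test statistic, and 95% intervals of log2 values from a normal distribution with that error. Alternatives were DESeq2 1.42.0, limma 3.58.1 on log2(FPKM + 1) and log2(FPKM + 0.1), other scalings, no filter, all 12 libraries in each fit, a gene length offset (lowess span 0.3), a replicate block, other thresholds and each library left out.

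The members and lists were chosen with earlier results of these data known, so the members have no test in treated cells or in the interaction. All 10 members and ATG7 were named. Of the other network genes, the 3 highest and 3 lowest called in each comparison were named, among those with a mean FPKM above 1 in at least 1 group. For pattern likeness the 5 most correlated genes were named for each of 4 members, on log2 CPM with a prior count of 2. Promoter windows came from RefSeq, and shared 100-base stretches and exons from GENCODE transcripts on GRCh38, whose member coordinates equal those of the files. Shared stretches were sought in genes whose symbols begin with HSP, DNAJB or BAG3. Exact intervals are Clopper-Pearson intervals of pooled counts, and they and the floor of 3 counts cover counting error only. Precision is limited by 3 libraries a group.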

Additional observations from a re-analysis of the deposited data

Results flagged for a closer look

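The interaction values of HSPA6, HSPA1A, HSPE1, DNAJB1, HSPA1B, BAG3 and HSPA8 were flagged for a closer look, and nothing is read from the flag. The interaction holds the treated contrast the genes were selected on, so its values are a description without a test. HSPA6 passed the filter on low counts only through its treated libraries. As ATG7 KO minus WT on the log2 scale, the difference was -7.78 for HSPA6, -1.99 for HSPA1A, -1.72 for HSPE1, -1.41 for DNAJB1, -1.25 for HSPA1B and -0.49 for BAG3, and 0.87 for HSPA8. The value was -1.24 for HSPE1 without untreated ATG7 KO replicate 1, and -0.26 for BAG3 with a correction for gene length. With groups of 3 libraries no single library was tested for standing apart within its group.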

How the results depend on the processing

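The counts of members in this paragraph include HSPA6, which passed the filter on low counts in both responses only through its treated libraries. They stand without the shares of all genes under the same settings, so they show only how the calls moved with the processing. With a log2 fold change beyond 1 and FPKM above 1 required, 5 members were called in the WT response, 3 in the ATG7 KO response and 0 in untreated cells, and the network genes called were 5, 2, 1, 3 (treated cells) and 2 (interaction). With each library left out in turn, 3 to 10 members were called in the ATG7 KO response (3 without treated replicate 3, 10 without untreated replicate 1) and 0 to 6 in untreated cells, with 5 to 44, 1 to 22 and 4 to 25 network genes in the ATG7 KO response, untreated cells and the interaction. In untreated cells DESeq2 called 2 members, the fit of all 12 libraries 3, and RLE scaling, upper quartile scaling and no filter 0 (edgeR; 5048 of 15357 genes had an unadjusted p under 0.05). With all 12 libraries the network genes called were 29 in the WT response, 20 in the ATG7 KO response, 10 in untreated and 21 in treated cells. At an adjusted p under 0.05 they were 20 in the ATG7 KO response, 8 in untreated cells and 22 in the interaction, where DESeq2 called 16 and no filter 14. Labels pair the replicates by number only, and same-numbered libraries deviated together with r between -0.04 and 0.10, so no pairing was assumed. With the replicate number as a block 0 members and 1 network gene were called in untreated cells, and 8 and 5 members in the WT and ATG7 KO responses.

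Direction turned for values near 0: HSP90AA1 in the ATG7 KO response (-0.004 with upper quartile scaling, and -0.01 to 0.20 with 1 library left out, below 0 without untreated ATG7 KO replicate 2, at -0.0021, or 3) and in the interaction (-0.11 to 0.10 with 1 library left out, above 0 without untreated ATG7 KO replicate 1), HSPH1 in untreated cells (0.11 with the gene length offset, and -0.06 to 0.02 with 1 library left out, 0.02 without ATG7 KO replicate 3 and 0.0015 without WT replicate 1), and HSPD1 in untreated cells (-0.12 to 0.17 with 1 library left out, -0.12 without ATG7 KO replicate 1). The cause was not tested. Of 785 member values under the alternatives, 718 kept their direction and side of the threshold or, in treated cells, moved by less than the spread between replicates. The median member difference in treated cells stayed between -0.77 and -0.57.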

Other observations

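CRYAB, a small heat shock protein and one of the lens markers, was singled out after its values were seen. It had 7, 11 and 10 reads in untreated WT, 102, 67 and 80 in treated WT, 0, 0 and 2 in untreated ATG7 KO and 45, 50 and 50 in treated ATG7 KO libraries.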
